A study of Sus scrofa with 40 samples.

Results

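A pair of actin genes and a pair of calcium handling genes were followed in the Longissimus muscle (LM) of 40 pigs: ACTA1 (probe CA779379.1_373), ACTA2 (probe AJ687393.1_147), ATP2A1 (probe BX670144.1_431) and CASQ2 (probe CF178442.1_548). Each gene was read by 1 probe of 60 bases. The members were chosen by probe name and make up 4 of the 15198 gene probes of the array. All 4 of 4 passed the filter on dim probes, which 12222 probes passed, and all were well above background in the pig's channel on 40 of 40 arrays. Their symbols come from the study's list of LW-higher genes. That list was chosen on these same arrays, so a lower level in B pigs is partly what put a name on these probes and is not independent evidence of direction.

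Actin is the protein of the thin filament, along which myosin pulls when muscle shortens. ACTA1 encodes the alpha actin of skeletal muscle fibres, and ACTA2 the alpha actin best known from smooth muscle, such as that of vessel walls. A skeletal fibre contracts when calcium leaves the sarcoplasmic reticulum and relaxes as calcium is pumped back, a step carried out by ATP2A1 (SERCA1) in fast fibres, while calsequestrins bind the stored calcium and CASQ2 is the calsequestrin of heart and slow fibres.

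The study compared a local breed, Basque (B), with a commercial breed, Large White (LW), in a conventional (C) and an alternative (A) housing system. There were 4 groups of 10 pigs, B C, B A, LW C and LW A, all castrated males with a live weight of 145 kg in the sample labels. B pigs were older than LW pigs when they reached this weight, and feed was given by live weight to both, so that breed, age and feeding relative to appetite cannot be told apart in any breed difference below. Pigs of the C system were kept indoors on slats, and those of the A system on bedding with access to the outside. Each pig had 1 array, on which its LM RNA, labelled with Cy3, was hybridised together with Cy5-labelled RNA pooled from the 40 pigs, always in this dye order. Values are log2 ratios of pig to pool with the median of the array at 0. Since the dyes were never exchanged, the distance of a probe from 0 was not read, nor was one probe's level set against another's. Pigs are named by breed, housing system and replicate number.

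Slides numbered 7 and scan days 3, with 2 to 7 arrays per slide and pigs of both breeds on each. The median Cy3 signal per array was 143 at the middle of the 40 arrays and ranged from 127.6 to 165. The number of probes well above background ranged from 10447 to 13441 per array. On none of the arrays was the spot of a member saturated or marked as an outlier (0 saturated, 0 outliers). The ACTA1 signal was so bright that the scanner software took it from a separate scan at low gain on 39 of 40 arrays in Cy3, all but that of LW C 8, and on 40 of 40 in Cy5. The ACTA1 ratio of LW C 8 alone thus sets a Cy3 signal at normal gain against a Cy5 signal at low gain. For ACTA2 this combination was the rule, with low gain on 0 arrays in Cy3 and on 39 of 40 in Cy5, LW C 8 among them. The part of the gain in the ratios was not tested. Besides ACTA1 and ATP2A1, the probes of MYH1 (fast myosin heavy chain) and NEB (nebulin, a thin filament protein) were well above background in 20 of 20 pigs of each breed, and both are defining genes of skeletal fibres.

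A few arrays stood apart from the rest. B A 15 and LW A 18 had the lowest correlation with the log2 ratios of the series matrix that the authors deposited, 0.680 and 0.833, whereas the array with the third lowest had 0.967 and the median was 0.994. Before centring, their median log2 ratios were -0.086 and -1.54, outside the -1.13 to -0.59 of the other arrays. Their values for a gene therefore depended on the normalization: in B A 15, ACTA1 was -1.37 with the array median at 0 but 0.15 after loess, 0.03 with Agilent's processed signals and 0.06 in the series matrix, and ACTA2 was -1.30 but 0.02, -0.03 and -0.02. The pig LW C 8 stood apart in another way: its array was ordinary in median Cy3 signal (141), in probes well above background (12487) and in its correlation with the series matrix (0.996), but the actin probes were far below those of all other pigs. Breed, housing and interaction differences of the members are therefore given with all 40 pigs and without LW C 8. Results that turn on B A 15 or LW A 18 are given without these too. LW C 8 was singled out by its actin values. Calls of the actins without it therefore rest on a choice made on the values tested.

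Between breeds, limma called 2583 of 12222 probes at an adjusted P value under 0.05, 1423 higher and 1160 lower in B pigs. Of the 4 genes, 1 was called lower in B pigs (CASQ2) and 0 higher, against 9.49% of all tested probes called lower. Without LW C 8, 3 of the 4 genes were called lower (ACTA1, ACTA2 and CASQ2), against 10.2% of all tested probes. Nothing is read from these shares, because the names come from a list of genes higher in LW pigs. LM was measured as whole tissue, so that fewer cells of a type and less RNA per cell cannot be told apart.

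**Figure D1:**
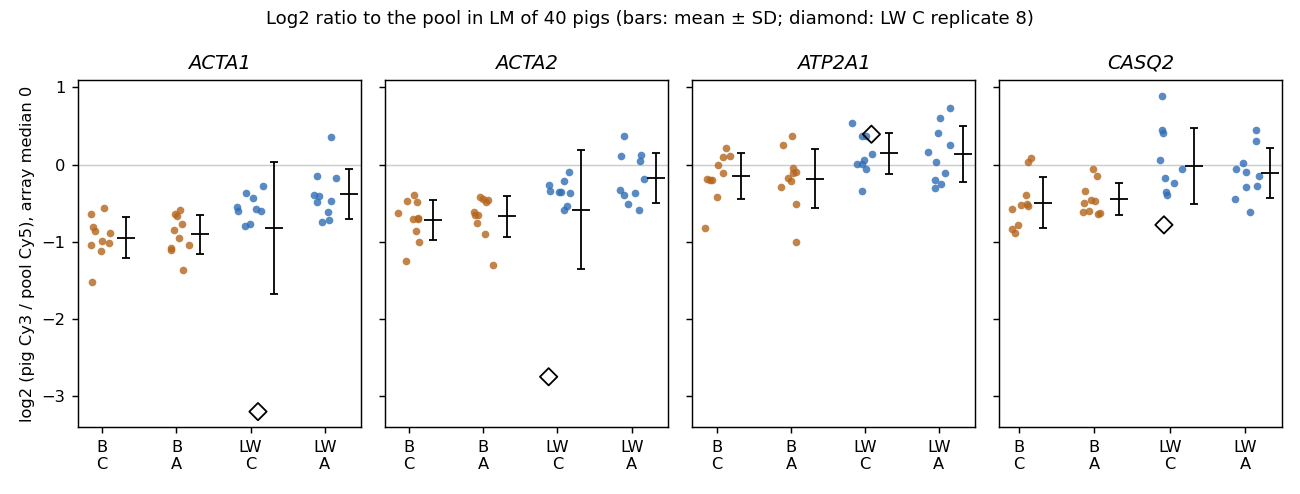
Log2 ratio of pig to pool (vertical axis, array median at 0) of ACTA1, ACTA2, ATP2A1 and CASQ2 in the LM of 40 pigs, 10 in each of B C, B A, LW C and LW A. Points are pigs, bars are the mean ± SD of each group, and the open diamond is LW C 8, at -3.20 for ACTA1 and -2.75 for ACTA2 but at 0.39 for ATP2A1.

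ACTA1, the main actin of the skeletal thin filament, ranged in B C pigs from -1.52 to -0.57 with a median of -0.94, and in B A pigs from -1.37 to -0.59 with a median of -0.90. In LW C pigs the lowest value was -3.20, the median -0.59 and the highest -0.28, and in LW A pigs these were -0.74, -0.44 and 0.36. Each of the 20 B pigs lay below the median of the LW pigs, 19 of 20 LW pigs lay above the median of the B pigs, and 11 LW pigs lay above every B pig. The breeds therefore overlapped only in part, and the single value far outside belonged to LW C 8; the next lowest LW C pig was at -0.80.

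With all 40 pigs, the difference in ACTA1 was -0.29 on the log2 scale (B minus LW, SE 0.16, 95% CI -0.61 to 0.03, adjusted P value 0.195), or 1.22-fold lower in B pigs, and it did not pass the threshold. The SD among LW pigs was 0.67, compared with 0.25 among B pigs. Without LW C 8 the SD among LW pigs was 0.27, and ACTA1 was lower in B pigs by 1.37-fold (-0.45, SE 0.088, 95% CI -0.63 to -0.27, adjusted P value 0.000342). That pig was left out for its low actin values, so this P value is no independent test. B pigs had the lower mean on 6 of 7 slides, with differences from -0.62 to 0.48, and the only slide with a positive difference was the one that held LW C 8. On that slide the difference was -0.42 when this pig was left out, and B pigs were then lower on 7 of 7 slides (-0.62 to -0.28).

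The ratio of ACTA1 is made of a pig's signal and that of the pool, and the medians of both differed between breeds. The median Cy3 signal of ACTA1 was 39430 in B pigs and 44363 in LW pigs, while the Cy5 signal of the pool, which is the same RNA on every array, had a median of 133192 on the arrays of B pigs and 118738 on those of LW pigs. For ACTA2 the pool was nearer to even, 31456 and 30953. When the Cy3 signal was used alone, the difference in ACTA1 without LW C 8 was -0.16 after Rquantile and -0.18 after quantile normalization, with adjusted P values of 0.283 and 0.138, and the gene was not called. Over all 25 alternatives the estimate for ACTA1 was negative but ran from -0.46 to -0.044, the latter close to 0 and from Cy3 alone after Rquantile with 40 pigs, and the adjusted P value ran from 9.2e-06 to 0.851. The part of the pool signal in the difference was not tested.

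In LW C 8, ACTA1 was 6.24-fold below the mean of the other LW C pigs (deviation -2.64 on the log2 scale), and none of the other 39 pigs was below -1.52. Its ACTA2 was 5.29-fold below the mean of its group mates (deviation -2.40), with the other pigs at -1.30 or higher. The spots were dim in Cy3, 12513 for ACTA1 beside a median of 41456 in the other pigs, and 3009 for ACTA2 beside 12328. In Cy5 the ACTA1 spot of this array was the brightest of the 40, at 193172, with the other arrays between 81459 and 153530. Other ways of normalizing gave ACTA1 values of -2.62 (series matrix), -2.63 (loess) and -2.65 (Agilent's processed signals) in this pig. The calcium genes of LW C 8 were not low together: ATP2A1 was 0.27 above its group mates, whereas CASQ2, with a deviation of -0.85, was the lowest of the LW pigs.

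The low values of LW C 8 were not spread evenly over the array. In this pig 106 probes lay more than 1.5 (log2) from the mean of the other LW C pigs, 71 below and 35 above, whereas in the other 39 pigs the median was 7 such probes and the highest 45 (LW A 13). Its value was the lowest of the 40 pigs for 1014 probes, beside a median of 186 in the other pigs and a highest count of 2248 in B A 15. What set this pig apart was not tested.

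ACTA2 ranged from -1.25 to -0.39 in B C pigs (median -0.70) and from -1.30 to -0.42 in B A pigs (median -0.63). LW C pigs had a lowest value of -2.75, a median of -0.35 and a highest value of -0.10, and LW A pigs ranged from -0.59 to 0.37 with a median of -0.26. As for ACTA1, all 20 B pigs lay below the LW median and 19 of 20 LW pigs above the B median; here 14 LW pigs were above every B pig. The single far value was again LW C 8.

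The breed difference of ACTA2 was -0.27 with 40 pigs (SE 0.14, 95% CI -0.57 to 0.02, adjusted P value 0.183) and was not called. When LW C 8 was left out, ACTA2 was 1.34-fold lower in B pigs (-0.42, SE 0.084, 95% CI -0.59 to -0.25, adjusted P value 0.000408), and the SD among LW pigs went from 0.61 to 0.26. As for ACTA1, leaving out LW C 8 was a choice made on the values tested. By slide, B pigs were lower on 6 of 7 (-0.60 to 0.65), and on 7 of 7 without this pig (-0.60 to -0.12). Unlike ACTA1, ACTA2 without LW C 8 was also called from the Cy3 signal alone, with differences of -0.34 and -0.41 and adjusted P values of 0.00178 and 0.000133, within a range of 2.0e-05 to 0.296 over its 25 alternatives.

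Smooth muscle and pericyte markers could be read for 3 of 13 genes of the list, ACTA2 among them. The others were MYL9, a myosin light chain of smooth muscle, and PDGFRB, a receptor of pericytes and fibroblasts. Both were called lower in B pigs by limma (-0.34 and -0.31, adjusted P values 0.000211 and 0.00208), as were 9.49% of all tested probes. They could be read only because the study lists them as higher in LW pigs on these same arrays. Their direction is therefore not independent evidence, and nothing is read from these calls. Among pigs, after removing group means and slide effects, ACTA2 had an r of 0.48 with PDGFRB and 0.19 with MYL9 over 40 pigs, and of 0.35 and -0.05 without LW C 8. In LW C 8 itself PDGFRB deviated from its group mates by -0.50 and MYL9 by -0.34. ACTA2 varied with ACTA1 more closely, as given further on. The part of smooth muscle cells in the ACTA2 values was not tested.

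The sequence of the ACTA1 probe is shown because a probe without a symbol, PMUS1-019C_251, is nearly a copy of it. Capitals mark the bases by which they differ in their best alignment.
ACTA1: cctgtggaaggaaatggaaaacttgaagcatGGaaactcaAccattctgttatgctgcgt
PMUS1-019C_251: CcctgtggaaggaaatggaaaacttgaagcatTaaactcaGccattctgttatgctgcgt
PMUS1-019C_251 is at an edit distance of 4 from the ACTA1 probe, made of 2 substitutions and 1 extra base in each probe. No other gene probe of the array shares a run of 20 or more bases with the ACTA1 probe, and 0 probes do so with those of ATP2A1 or CASQ2.

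PMUS1-019C_251 followed ACTA1 closely and was the probe most like it of the 12208 compared, with r = 0.99 over 40 pigs and 0.97 without LW C 8. Its mean was -1.13 ± 0.26 in 20 B pigs and -0.78 ± 0.74 in 20 LW pigs (SD), or -0.63 ± 0.30 in the 19 LW pigs without LW C 8. LW C 8 had -3.64, and none of the other pigs was below -1.78. The breed difference was -0.32 (SE 0.17, adjusted P value 0.200) with 40 pigs and -0.50 (SE 0.095, adjusted P value 0.000235) without LW C 8. The transcript or transcripts that these alike probes read were not told apart.

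ATP2A1, the calcium pump of fast fibres, ranged from -0.82 to 0.22 in B C pigs (median -0.15) and from -1.01 to 0.36 in B A pigs (median -0.14). In LW C pigs it ranged from -0.35 to 0.54 and in LW A pigs from -0.30 to 0.73, with a median of 0.10 in both. The breeds overlapped widely: 15 of 20 B pigs were below the LW median and 7 LW pigs were above every B pig. With the array median at 0 the lowest values belonged to B A 15 (-1.01) and B C 10 (-0.82), and the highest to LW A 18 (0.73). These ends were not the same under other normalizations. B A 15 was then at 0.04 (loess), 0.21 (Agilent's signals) and 0.19 (series matrix), B C 10 was the lowest pig in all of these (-0.52, -0.55 and -0.54), and LW A 17 the highest (1.09, 1.11 and 1.13).

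The difference in ATP2A1 was -0.28 (SE 0.10, 95% CI -0.49 to -0.07), 1.21-fold lower in B pigs, with an adjusted P value of 0.0525 that narrowly missed the threshold. Leaving out LW C 8 changed it little, to -0.27 (SE 0.11, adjusted P value 0.0742). B pigs had the lower mean on 6 of 7 slides, from -0.50 to 0.16. The call depended on the processing: ATP2A1 passed in 15 of 25 alternatives, with adjusted P values from 0.0119 (series matrix values) to 0.220 (Cy3 alone after Rquantile without LW C 8) and estimates from -0.31 to -0.17. Leaving out B A 15 and LW A 18 gave -0.22 (SE 0.095, adjusted P value 0.0789). Among single pigs, the gene passed without B C 4 (-0.31), B C 5 (-0.29), B A 12 (-0.29), B A 16 (-0.33), B A 18 (-0.30), LW C 2 (-0.30), LW C 10 (-0.32), LW A 13 (-0.30), LW A 14 (-0.30) or LW A 20 (-0.29), and missed without any of the other 30.

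CASQ2, which binds calcium inside the store, ranged from -0.88 to 0.09 in B C pigs (median -0.53) and from -0.64 to -0.05 in B A pigs (median -0.48). LW C pigs ranged from -0.78 to 0.89 and LW A pigs from -0.62 to 0.45, again with the same median, -0.12. In 17 of 20 B pigs CASQ2 was below the LW median, and 5 LW pigs were above every B pig, led by LW C 10 at 0.89. The groups thus overlapped, with B pigs crowded toward the lower end.

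CASQ2 was lower in B pigs by 1.35-fold (-0.43, SE 0.11, 95% CI -0.65 to -0.21, adjusted P value 0.00431). Without LW C 8, itself low in CASQ2, the difference was -0.49 (SE 0.10, adjusted P value 0.000482). B pigs were lower on 7 of 7 slides, from -0.62 to -0.07 with 40 pigs. CASQ2 was called in 25 of 25 alternatives and whichever of the 40 pigs was left out. Its spots were the nearest of the 4 to background: the Cy3 signal ranged from 86.0 to 355 over a local background of 39 to 51, with a median of 116 in B pigs and 151 in LW pigs. Over the alternatives the estimate ran from -0.92 to -0.38, so the call held in all 25 while the size varied.

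**Figure D2:**
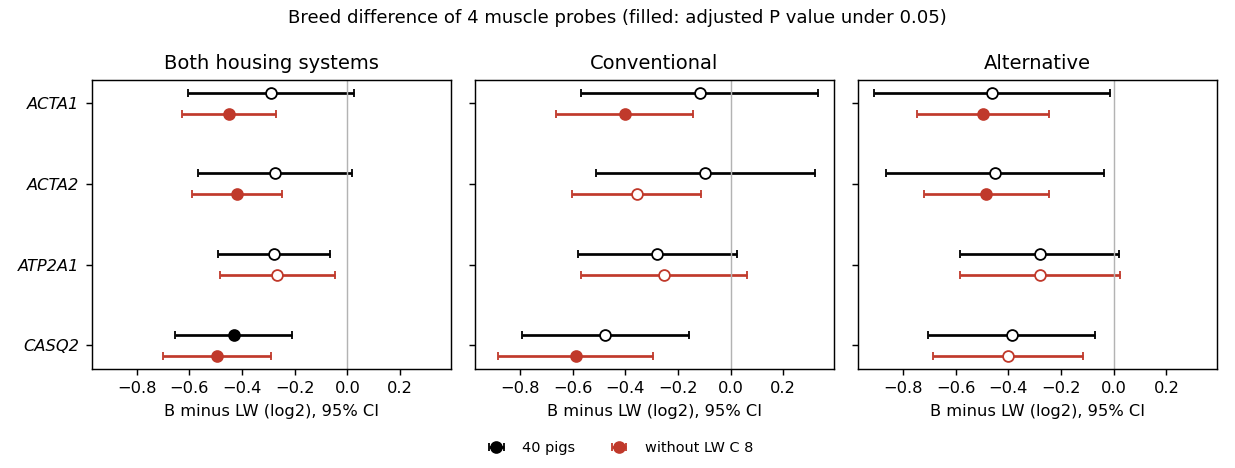
Breed difference (horizontal axis, B minus LW, log2, with 95% CI) of the 4 genes over both housing systems and within the C and A systems, with all 40 pigs (black) and without LW C 8 (red). Filled points had an adjusted P value under 0.05; with 40 pigs only CASQ2 over both systems was filled, and the intervals of the actins narrowed without LW C 8.

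Within the C system, 0 of the 4 genes were called by limma with all 40 pigs, against 2.97% of all probes called lower in B pigs, and 2794 probes passed 0.05 before adjustment. The differences in C were -0.12 for ACTA1, -0.10 for ACTA2, -0.28 for ATP2A1 and -0.48 for CASQ2, the last with an adjusted P value of 0.0518. CASQ2 in C was not settled by this value: it was called in 14 of 19 alternatives, with estimates from -0.86 to -0.45 and adjusted P values from 0.00452 to 0.134. It also passed in 10 of the 40 cases with a single pig left out, those without B C 1 (-0.53), B C 2 (-0.55), B C 5 (-0.50), LW C 1 (-0.50), LW C 8 (-0.59), LW C 9 (-0.52), LW A 15 (-0.48), LW A 16 (-0.48), LW A 18 (-0.47) or LW A 20 (-0.50). Without LW C 8, which belongs to this system, 2 of 4 were called against 3.71% of probes: ACTA1 (-0.40, adjusted P value 0.0404) and CASQ2 (-0.59, adjusted P value 0.00810), while ACTA2 (-0.36) had 0.0575 and ATP2A1 (-0.25) had 0.328. Over 19 alternatives the estimate in C ran from -0.41 to 0.0057 for ACTA1 and from -0.42 to 0.0052 for ACTA2, each called in 2. That of ATP2A1 ran from -0.40 to -0.25 and was called in 0.

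In the A system 0 of 4 were called with 40 pigs against 4.52% (2702 probes passed 0.05 before adjustment), with differences of -0.46 for ACTA1, -0.45 for ACTA2, -0.28 for ATP2A1 and -0.39 for CASQ2 (adjusted P values 0.210, 0.181, 0.263 and 0.123). Leaving out LW C 8, 2 of 4 were called against 5.2%. In this latter fit ACTA1 was at -0.50 (adjusted P value 0.00876), ACTA2 at -0.48 (0.00739), ATP2A1 at -0.28 (0.267) and CASQ2 at -0.40 (0.0669). LW C 8 is no A pig, and enters the A contrast only through the shared slide terms and variance. Over 19 alternatives the estimate in A ran from -0.52 to -0.037 for ACTA1 (nearest 0 on Cy3 alone after Rquantile), from -0.49 to -0.28 for ACTA2, from -0.32 to -0.11 for ATP2A1 and from -0.78 to -0.26 for CASQ2, called in 3, 3, 0 and 4 of them.

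The breed differences of the C and A systems were also set against each other. Their interaction was called by limma for 0 of the 4 genes and for 0 of 12222 probes (0% of them), while 312 probes passed 0.05 without adjustment. For ACTA1 the interaction was -0.34 (SE 0.31, adjusted P value 0.974) with 40 pigs and -0.09 (SE 0.18, adjusted P value 0.946) without LW C 8, and for ACTA2 -0.36 (SE 0.29) and -0.13 (SE 0.17). That of CASQ2 was 0.09 (SE 0.22) and 0.19 (SE 0.20), and that of ATP2A1 was near 0, with a 95% CI of -0.43 to 0.42, or -0.46 to 0.41 without LW C 8. These intervals are wide beside the breed differences themselves. Over 20 alternatives the interaction of ATP2A1 ran from -0.046 to 0.23 and changed sign in 10.

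Between the A and C systems limma called 0 of the 4 genes and 0 of 12222 probes (0%), with 336 probes at an unadjusted P value under 0.05; an analysis that first adjusted these values for slide where its effect passed 0.05, and then tested them, also called 0. ACTA1 and ACTA2 were each 0.23 higher in A pigs with 40 pigs (SE 0.16 and 0.15, adjusted P value 1.00 for both) and 0.10 without LW C 8 (SE 0.091 and 0.087). By breed, the housing difference of ACTA1 was 0.06 in B pigs, and in LW pigs it was 0.40 (SE 0.23) with LW C 8 and 0.14 (SE 0.13) without. ATP2A1 and CASQ2 both differed by -0.03 between housing systems with 40 pigs (SE 0.11 for each, 95% CI -0.25 to 0.19 and -0.26 to 0.20). Without LW C 8 the difference was -0.02 for ATP2A1 (95% CI -0.25 to 0.20) and -0.08 for CASQ2 (95% CI -0.29 to 0.13), the latter being -0.18 in LW pigs (SE 0.15) and 0.01 in B pigs (SE 0.14). These intervals do not show that the housing systems were alike.

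How the 4 genes varied together among pigs of the same group was examined for all 6 pairs, after removing the mean of each breed and housing group, with two-sided permutation tests within groups and BH adjustment over the 6 pairs. ACTA1 and ACTA2 rose and fell together from pig to pig, with r = 0.956 and rho = 0.862 over 40 pigs. The P value was 1e-05 for both, the smallest these permutations can give (adjusted 6e-05). Without LW C 8, r was 0.853 and rho 0.802, again at 1e-05, and without the 2 pigs farthest from the median (LW C 8 and LW A 18) r was 0.830. It was 0.864 within B pigs, 0.974 within LW pigs and 0.843 in LW pigs without LW C 8. These values were lower without the farthest pigs: 0.726 in B pigs without B C 10 and B A 15, and 0.718 in LW pigs without LW C 8, LW A 18 and LW A 20. Over both breeds r was 0.956 without B A 15 and LW A 18, and 0.801 without LW C 8 as well. After loess it was 0.950, and 0.740 without LW C 8. On the scan day with 20 arrays r was 0.971 (0.831 without LW C 8) and on that with 14 arrays 0.944 (0.846 without B C 10 and B A 15). The remaining day, with 6 arrays spread over the 4 groups, had too few pigs per group for a correlation to be read here or in the other pairs. After removing slide means r was 0.972.

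Whether the actins were related to ATP2A1 depended on which pigs were included and on the normalization. For ACTA1 and ATP2A1 r was 0.138 and rho 0.213 (P = 0.366 and 0.178, adjusted 0.366 and 0.260), and for ACTA2 and ATP2A1 r was 0.163 and rho 0.201 (P = 0.288 and 0.221, adjusted 0.345 and 0.260). When LW C 8 was left out, r was 0.478 for ACTA1 (P = 0.00398, adjusted 0.00796) and 0.490 for ACTA2 (P = 0.00367, adjusted 0.00796), while rho was 0.288 and 0.317 (P = 0.0889 and 0.0647, adjusted 0.178 for both). Within B pigs r was 0.660 for ACTA1 (P = 0.00228, adjusted 0.00684) and 0.582 for ACTA2 (P = 0.0120, adjusted 0.0240), with rho at 0.532 and 0.322 (adjusted 0.0621 and 0.349), but r was 0.281 and -0.02 without B C 10 and B A 15. In LW pigs it was -0.07 and -0.02, or 0.280 and 0.382 without LW C 8 (adjusted 0.533 and 0.453). The relation over both breeds also rested on few pigs: without LW C 8 and the next 2 farthest from the median, LW A 18 with B C 10 or B A 15, r was 0.261 in both pairs. With all other pigs but without B A 15 and LW A 18, the arrays that stood apart, r was -0.02 and -0.01. After loess and without LW C 8, r was 0.066 for ACTA1 and 0.238 for ACTA2 (adjusted 0.700 and 0.479). On the day with 20 arrays r of ACTA1 and ATP2A1 was 0.014, or 0.355 without LW C 8, and on that with 14 arrays 0.723, or -0.067 without B C 10 and B A 15, so that both values depended on 1 or 2 pigs.

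Pairs with CASQ2 had weak correlations. For ACTA1 and CASQ2 r was 0.355 and rho 0.184 (P = 0.107 and 0.249, adjusted 0.188 and 0.260), and r was 0.066 without LW C 8, which is low in both. With slide means removed as well, r was 0.471 (P = 0.0140, adjusted 0.0419) with that pig included but 0.155 without it. On the day with 20 arrays it was 0.503, or 0.263 without that pig, and on that with 14 arrays -0.108, or 0.440 without B C 10 and B A 15. For ACTA2 and CASQ2 r was 0.333 and rho 0.211 (P = 0.125 and 0.203, adjusted 0.188 and 0.260), and 0.033 without that pig. The pair of calcium genes, ATP2A1 and CASQ2, had r = -0.246 and rho = -0.187 (P = 0.115 and 0.260, adjusted 0.188 and 0.260), and -0.214 without LW C 8. Among the 6 pairs over both breeds, that of the actins alone passed with and without LW C 8.

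**Figure D3:**
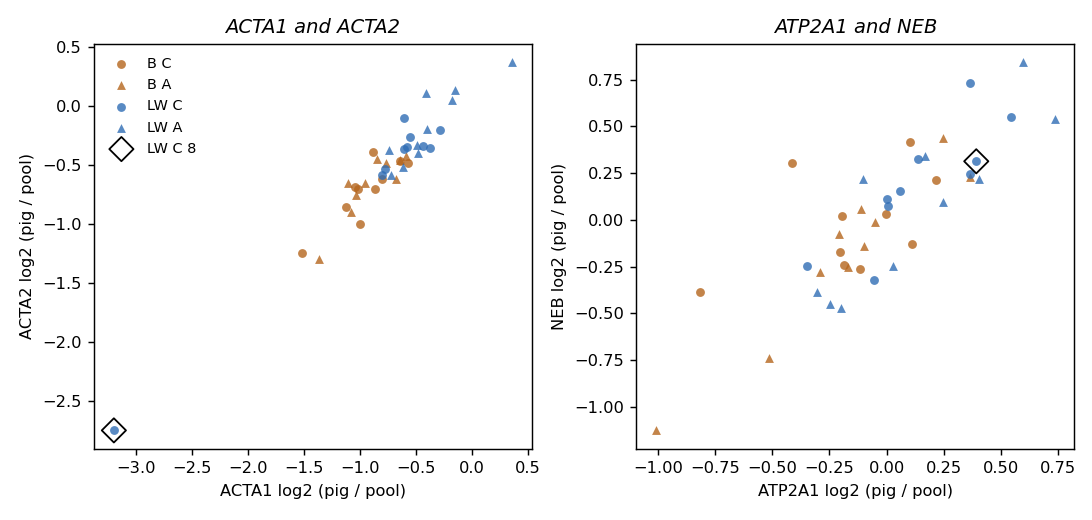
Log2 ratios of pig to pool of ACTA1 against ACTA2 (left) and of ATP2A1 against NEB (right) in 40 pigs, by breed (colour) and housing system (circles C, triangles A), with LW C 8 in a diamond. The actins lie along one line, from LW C 8 at the lower left to LW A 18 at the upper right, while LW C 8 lies among the other LW pigs for ATP2A1 and NEB. After loess LW A 18 was not the highest pig. Its ACTA1 was then 0.33 beside 0.55 in LW A 20, and its ACTA2 0.24 beside 0.73 in LW A 17.

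The genes whose values varied most like a member from pig to pig were sought among probes with a symbol, so that a closer probe without one may come first, after removing group means and slide effects; this is a description over 40 pigs and carries no test. For ACTA1 they were ACTA2 (r = 0.972, or 0.907 without LW C 8), ALDH16A1, a member of the aldehyde dehydrogenase family (0.955 and 0.864), and MYBPC3, the cardiac form of myosin binding protein C (0.934 and 0.814). For ACTA2 they were ACTA1, ALDH16A1 (0.951 and 0.853) and MYBPC3 (0.949 and 0.857). Over all probes ACTA2 was closest to PMUS1-014B_81, which has no symbol (0.98, or 0.95 without LW C 8), and then to PMUS1-019C_251, the near copy of the ACTA1 probe (0.98 and 0.92), so the latter followed ACTA2 about as closely as ACTA1 did. The median r over the 12208 probes was 0.08 for both actins, and 28 probes for ACTA1 and 26 for ACTA2 had an r over 0.8. With 40 pigs, limma did not call MYBPC3 and ALDH16A1 between breeds (-0.19 and -0.16, adjusted P values 0.273 and 0.388). Without LW C 8 they were called lower in B pigs (-0.30 and -0.28, adjusted P values 0.00401 and 0.00657). Of all tested probes 9.49% and 10.2% were called lower. Both genes were picked for following the actins, LW C 8 included, and their symbols come from the study's list of LW-higher genes. Their calls are therefore no independent evidence, and nothing is read from them.

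Among named genes ATP2A1 varied most like NEB, with r = 0.846 over 40 pigs, 0.860 without LW C 8 and 0.805 after loess, next to 0.861 for the closest probe of all, CB826591.1_450, which has no symbol. Next among named genes over 40 pigs was SSR4, of the translocon-associated complex of the endoplasmic reticulum (0.749). SSPN, sarcospan of the muscle cell membrane, followed (0.633). SSR4 and SSPN were at 0.746 and 0.748 without LW C 8, and at 0.644 and 0.512 after loess. After loess TPM1, at 0.628, was among the named genes closer than SSPN. NEB, like ATP2A1, was not called between breeds (-0.22, adjusted P value 0.176), whereas SSR4 (-0.34, adjusted P value 0.00362) and SSPN (-0.33, adjusted P value 0.00938) were called lower in B pigs. The symbols of these genes come from the same list of LW-higher genes, so their direction is not independent evidence. For CASQ2 the named genes over 40 pigs were SERF1A (0.586), SERPINE2 (0.563) and TSPAN9 (0.540), at 0.499, 0.418 and 0.411 without LW C 8. Without that pig MYH3, at 0.447, was closer to CASQ2 than SERPINE2 or TSPAN9. A probe without a symbol, BQ599904.1_443, was closer to CASQ2 than these (0.726, or 0.693 without LW C 8). No probe (0 of 12208) had an r over 0.8 with CASQ2, and the median was 0.00.

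Other genes of the thin filament and of calcium handling could be read only where the study's list names a probe, that is, for genes already listed as higher in LW pigs, so that their direction is again not independent. The median breed difference over all tested probes was 0.00, and 9.49% of them were called lower in B pigs (10.2% without LW C 8), beside which the counts of each list below stand; nothing is read from these counts either. Of 6 actins, 2 had a probe (ACTA1 and ACTA2), with a median difference of -0.28 with 40 pigs (0 called) and -0.43 without LW C 8 (2 called). Of 18 thin filament genes 4 had one, and 2 were called lower with 40 pigs: TPM1 (-0.26, adjusted P value 0.00402) and TPM3 (-0.23, adjusted P value 0.0166), tropomyosins that lie along the actin filament. ACTA1 joined them without LW C 8, and the median was -0.24 with and -0.26 without that pig.

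Calcium handling genes of the sarcoplasmic reticulum and triad had a probe for 3 of 33 genes, with 4 probes in all and a median of -0.34 (-0.32 without LW C 8). CASQ2 and JPH1, which holds the reticulum close to the transverse tubule, were called lower (2 genes), and ATP2A1 was not. The probes of JPH1 differed: AJ301015.1_3 had -0.39 (adjusted P value 6.0e-05) and AJ301177.1_16 had -0.09 (adjusted P value 0.136). Among fast fibre genes, 2 of 13 had a probe, ATP2A1 and MYH1, the latter called lower in B pigs at -0.66 (adjusted P value 0.00159), and the median was -0.47 (-0.49 without LW C 8, with 1 called in both). Cardiac and slow fibre genes had 4 of 18, with 3 called lower (CASQ2, TPM3 and ANKRD1) and a median of -0.33, and MYBPC3 made 4 without LW C 8, with a median of -0.39.

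Thick filament, titin and Z-disc genes had a probe for 4 of 34, with 3 called lower (MYH1, MYH3 and ANKRD1) and a median of -0.67, or 4 and -0.71 without LW C 8. Fibroblast and matrix markers had 4 of 12 genes with 6 probes, of which SPARC and COL1A2 were called (2 genes), with a median of -0.34, or -0.41 without LW C 8, when the same genes were called. COL1A2 was called from BM190694.1_1635 (-0.49, adjusted P value 0.0334) but not from Z99080.1.s_1711 (-0.18, adjusted P value 0.0727), and from both without LW C 8 (-0.60 and -0.22, adjusted P values 0.00462 and 0.0162). The median of the 3 smooth muscle and pericyte markers was -0.31, or -0.36 without LW C 8, when all 3 were called. Of 8 adipocyte, 6 endothelial and 9 immune and blood cell markers, 0 could be read by name. Between housing systems 0 genes of any of these lists were called by limma.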

How the data were processed

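LM RNA of 40 pigs was measured, 1 two-colour array per pig. Groups and replicate numbers came from the sample labels. The authors deposited the scanner output of Agilent Feature Extraction, in which each spot's intensity in Cy3 (pig) and Cy5 (pool) and its local background stand before normalization, together with Agilent's processed intensity. Marks for saturated, outlier and well-above-background spots were deposited in the same output. The authors also deposited a series matrix of log2 ratios, which the comparison with each array showed to run as pig over pool. The sources do not say how B A 15 and LW A 18 were treated in it. Columns of unmapped samples numbered 0. The labels and the methods give different amounts of RNA per labelling.

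Intensities were corrected with normexp (offset 50) over all spots in limma 3.58.1 under R 4.3.3, turned into log2(Cy3/Cy5) and centred on the array median. Control spots and 2396 outlier spots were dropped but not the 83 saturated ones. Testing required a Cy3 signal well above background on 10 or more arrays of either breed. A single limma model held breed, housing system, breed by housing and slide (lmFit and eBayes, two-sided), with BH adjustment over 12222 probes and a threshold of 0.05. The methods adjust first for slide where its effect is significant and then test. This model step alone was run as an alternative (two-step analysis), on the values and probes used here and not on the normalization and filter of the methods. According to the paper, litter mates within each breed were chosen and assigned to the C or the A system. The model has no litter term, since the labels give no litter, and pigs of 1 litter were treated as independent. The housing test therefore leaves out any pairing by litter, and the SEs of the breed differences take all pigs as unrelated. For arrays the number of pigs limits the precision.

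Correlations used 1e+05 permutations in Python 3.11.15 with numpy 2.4.6 and scipy 1.17.1. Symbols came from the study's list of LW-higher genes, and its list of B-higher genes was not used for names. Named genes were the 4 members, every gene of the fixed lists with a named probe, and for each member the 3 named genes with the highest r. The members and the lists were chosen with earlier results of these data known. Alternatives covered background correction, normalization, Cy3 alone, the series matrix, filters, spots, slide, model, array weights, replicate number as a block and pigs left out. Those without B A 15 and LW A 18, those that joined another processing with leaving out LW C 8, and the correlations after loess were added after seeing the data. The sequence of the ACTA2 probe is not reported here. The programs were tested on simulated data.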

Additional observations from a re-analysis of the deposited data

Results flagged for a closer look

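In 2 of 16 groups of 10 pigs (4 genes in each of 4 groups), the lowest pig lay so far from the rest that its gap to the nearest pig, as a share of the whole range of the group, was above Dixon's critical value for 10 samples at the 95% level. For ACTA1 in LW C pigs this share was 0.822, with LW C 8 at -3.20 and the nearest pig at -0.80. For ACTA2 in LW C pigs it was 0.818, with the same pig at -2.75 and the nearest at -0.58. Chance alone passes this value in about 1 in 20 groups, and the actin values of a pig are not independent of each other. LW C 8 had already been set apart for its low actins, so these values restate that observation and are no independent test of it. What set LW C 8 apart was not tested.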

How the results depend on the processing

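The breed difference of CASQ2 was called under all 25 alternatives (-0.92 to -0.38), and the estimates of the other genes kept their sign between breeds in all 25. CASQ2, the dimmest signal over background, had -0.82 with Agilent's signals, -0.58 with an offset of 16 and -0.45 without background correction. For ATP2A1 and CASQ2, 1 probe per gene leaves no second reading. Probes like that of ACTA2 in sequence are not reported here. The cause of each change given here was not tested, apart from the changes that follow from leaving out LW C 8 or from testing fewer probes.

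ACTA1 and ACTA2 came under the threshold with array weights (-0.33 and -0.32, adjusted P values 0.0171 and 0.0150), without LW C 8 (-0.45 and -0.42), and when leaving that pig out was joined with leaving out B A 15 and LW A 18 (-0.39 and -0.37), loess (-0.42 and -0.43), Agilent's signals (-0.40 and -0.42), the series matrix (-0.40 and -0.43) or the two-step analysis (-0.46 and -0.43). ACTA2 did so without that pig on Cy3 alone after Rquantile (-0.34) and quantile normalization (-0.41). Over single pigs left out, ACTA1 ran from -0.45 to -0.23 and ACTA2 from -0.42 to -0.23, called only without LW C 8. Without any other pig they ran to -0.32 and -0.31.

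ATP2A1 came under the threshold with Agilent's signals (-0.31), an offset of 16 (-0.30), loess (-0.29), quantile-normalized Cy3 (-0.29), the series matrix (-0.31), probes well above background on all arrays (-0.28), the most variable probes only (-0.28), no slide term (-0.31), slide as a random block (-0.30) and the two-step analysis (-0.31). It also did so without LW C 8 with loess (-0.28), Agilent's signals (-0.30), the series matrix (-0.30) and the two-step analysis (-0.29). Over single pigs left out it ran from -0.33 to -0.24, and CASQ2 from -0.49 to -0.38.

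Probes called between breeds numbered 2583, and 2673 without LW C 8. With 40 pigs they were 3736 with loess, 3787 with Agilent's signals and 1760 among the most variable probes only, and with both LW C 8 left out and loess or Agilent's signals they were 3924 and 4023. Over single pigs left out they ran from 2351 to 3137. Within the C system 1007 were called, but 1729 without background correction, 1561 with Agilent's signals, 1615 with loess, 567 with Cy3 alone after Rquantile, 1532 in the series matrix and 1712 with array weights. The count in C was 1636 without B A 15 and LW A 18, 1885 without those and LW C 8, and 1892 with loess without LW C 8. Single pigs left out gave 774 to 1436. Within the A system 926 were called, but in the same order 1624, 1903, 1711, 1526 (here quantile-normalized Cy3), 1640 and 2190, then 1608, 1778 and 1910. Single pigs gave 643 to 1240. For housing and interaction 0 probes were called by limma in any alternative, with 336 and 312 under an unadjusted P value of 0.05 in the model as fitted.

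Some estimates changed sign. Those of the housing differences were near 0, but the interaction of ATP2A1 changed sign in 10 of 20 alternatives and was as high as 0.23. The housing difference of ATP2A1 was 0.019 with quantile-normalized Cy3 and 0.0015 with loess without LW C 8, and that of CASQ2 was 0.010 in the series matrix. Single pigs left out gave -0.10 to 0.010 and -0.084 to 0.045. The interaction of ACTA1, which was not near 0 with 40 pigs (-0.34), was 0.015 and 0.0018 on Cy3 alone (Rquantile, quantile) and 0.012 without B A 15, LW A 18 and LW C 8. That of ATP2A1 was 0.11 without background correction, 0.12 with Agilent's signals, 0.14 with loess, 0.18 and 0.23 on Cy3 alone, 0.14 in the series matrix, 0.070 with array weights, 0.12 without B A 15 and LW A 18, 0.097 without LW C 8 as well, and 0.12 with loess without LW C 8. Single pigs gave -0.074 to 0.084, and for CASQ2 -0.023 to 0.19. The correlation of ACTA1 with ATP2A1 was -0.012 with Agilent's signals, -0.069 with loess and -0.024 without B A 15 and LW A 18, where that of ACTA2 with ATP2A1 was -0.011. When LW C 8 was left out these pairs had 0.478 and 0.490, but with loess as well they had 0.066 and 0.238. With slide means removed, ACTA1 and CASQ2 had 0.471, or 0.155 without LW C 8.

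Replicate numbers are shared by the breeds, and the pairing was looked at over 20 pairs. The correlation of same-numbered pigs ran from -0.36 to 0.34 (median -0.02), was over 0.1 in 3 pairs, and 2 pigs correlated best with their own number, so the numbers do not pair the pigs. With the number as a block, 2197 probes were called between breeds, ATP2A1 came under the threshold (-0.27, adjusted P value 0.0450), and the breed differences of ACTA1 and ACTA2 in the C system changed sign to 0.0057 and 0.0052 (log2), with adjusted P values of 0.995 and 0.996, so that neither was called. Each number falls in 1 housing system, so a housing difference could not be fitted with the block. The two-step analysis gave no contrast within a housing system.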

Other observations

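Among probes with a symbol, 21 probes of 19 genes lay more than 1.5 (log2) below the mean of the other LW C pigs in LW C 8, out of 71 probes that did so. Besides ACTA1 and ACTA2, the genes were ADAMTS8, ITGB1BP2, ALDH16A1, SAMD11, MYBPC3, GRAMD2, COL1A2, DPT, GADL1, ASPN, SLC28A1, ENHO, CA3, COL15A1, TNK1, FRY and DNAJA4. They include genes of the sarcomere (MYBPC3), of collagens and the matrix around them (COL1A2, COL15A1, DPT, ASPN, ADAMTS8) and a carbonic anhydrase abundant in slow fibres (CA3). For 3 of these genes another probe was less low: in COL1A2, BM190694.1_1635 deviated by -1.78 but Z99080.1.s_1711 by -0.60, in DPT, CA778716.1_1602 by -1.66 but CA778716.1_1688 by -0.96, and in SLC28A1, CN153994.1_766 by -1.60 but BW968508.1_635 by 0.10. On the probes of ADAMTS8, COL1A2, GADL1, SLC28A1 and ENHO that lay this far below the mean, LW C 8 was still within the range of the other pigs. Its ADAMTS8, for example, was at -3.51, with another pig at -4.19. The 19 genes were picked after their values had been seen, so nothing is read from these groupings. Other matrix genes deviated less, among them DCN at -0.89 and COL6A3 at -0.57. So did other genes of the sarcomere: MYH1 at -0.79, TPM3 at -0.40, MYH3 at -0.20, TPM1 at -0.10, ANKRD1 at 0.004 and NEB at 0.13. ACTA1 had the fifth lowest deviation of all tested probes in this pig and ACTA2 the eighth.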
